A study of Arabidopsis thaliana with 8 samples.

Results

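A set of 1382 accessible chromatin regions (ACRs) of Arabidopsis thaliana had lower mean accessibility in germinating seeds than in both the dry seed and the seedling. The members were selected on their measured values, from a table of 30223 ACRs in CPM, reads scaled to a common library size. An ACR was eligible with a mean over all libraries of at least 10 CPM, which 28686 passed, and was a member when the lower of the dry seed and seedling means was at least 1.3 times the higher of both means in germinating seeds. That quotient is called the closure ratio here. The members were 4.82% of the eligible ACRs. The mirror pattern, higher in germinating seeds than before and after by the same fold, was met by 1538 ACRs, 5.36% of those eligible.

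All libraries were made from the Col-0 accession by ATAC-seq, an assay that cuts and tags DNA free of nucleosomes with the transposase Tn5. The 4 stages with 2 libraries each were dry seeds (DS), germinating seeds after 6 h (L6) and 26 h (L26) of continuous light, and seedlings after 57 h of light (L57), all but DS after stratification in water in the cold and dark. At L6 and L26 the embryos were squeezed from their coats and cleaned on sucrose before nuclei were taken, and the handling of dry seeds and seedlings is not given in the sources used here. The tissue that was sampled and the stage therefore cannot be told apart in DS against L6 or in L57 against L26. Separate cultures are not stated for the libraries of a stage, and p-values therefore cover only the variation among these samples, which could be technical. In such bulk samples, fewer open cells and less opening in each cell cannot be told apart either.

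Accessible chromatin in plants lies mostly at promoters and in intergenic regulatory DNA, where transcription factors displace nucleosomes. The bodies of genes are covered by regularly spaced nucleosomes, and Tn5 enters them less often. During seed maturation chromatin is compacted, and during germination the seed program of storage, desiccation tolerance and dormancy is shut down while growth, and later photosynthesis, begins. The B3 domain repressor HSI2, also called VAL1, takes part in that shutdown by silencing seed maturation genes.

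The summit is the position of the highest pileup of reads pooled over all libraries. The 151 bases around it are shown for 5 members with closure ratios above 2. They were chosen because 3 of these summits lie in coding sequence and 2 in introns beside it. The promoter member of UMAMIT42, with a ratio of 1.47 near the upper quartile of all members (1.49), is shown as a contrast. Capitals mark bases annotated as coding, and each sequence runs 5′ to 3′ on the strand of its gene (TAIR10 coordinates, sequence and annotation from RefSeq TAIR10.1).
HSI2 (chr2:12983009-12983159, minus strand): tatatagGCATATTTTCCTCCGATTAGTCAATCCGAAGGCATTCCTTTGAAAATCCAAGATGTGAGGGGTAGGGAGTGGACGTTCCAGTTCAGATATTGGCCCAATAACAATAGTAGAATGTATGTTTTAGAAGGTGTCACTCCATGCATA
CAP1 (chr4:16485170-16485320, minus strand): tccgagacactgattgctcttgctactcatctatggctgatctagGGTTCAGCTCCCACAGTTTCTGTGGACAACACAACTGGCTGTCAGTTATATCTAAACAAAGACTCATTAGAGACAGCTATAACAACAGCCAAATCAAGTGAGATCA
AT4G31110 (chr4:15129321-15129471, plus strand): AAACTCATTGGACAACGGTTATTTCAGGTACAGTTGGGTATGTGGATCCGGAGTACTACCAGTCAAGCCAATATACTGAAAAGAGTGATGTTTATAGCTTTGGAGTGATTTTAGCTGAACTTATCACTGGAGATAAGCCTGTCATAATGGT
HDR (chr4:16430227-16430377, minus strand): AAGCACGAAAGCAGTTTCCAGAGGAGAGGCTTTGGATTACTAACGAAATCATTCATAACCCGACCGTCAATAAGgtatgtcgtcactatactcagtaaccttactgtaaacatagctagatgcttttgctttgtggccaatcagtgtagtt
AT1G73860 (chr1:27771853-27772003, minus strand): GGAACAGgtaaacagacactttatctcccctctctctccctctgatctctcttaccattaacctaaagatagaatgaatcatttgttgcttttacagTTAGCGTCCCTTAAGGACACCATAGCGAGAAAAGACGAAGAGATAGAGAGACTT
UMAMIT42 (chr5:16076409-16076559, minus strand): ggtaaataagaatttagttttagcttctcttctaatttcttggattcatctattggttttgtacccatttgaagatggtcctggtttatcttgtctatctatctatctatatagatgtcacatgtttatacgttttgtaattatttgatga
In HSI2, 144 of the 151 bases were coding, in CAP1 106, in AT4G31110 all 151, in HDR 74 and in AT1G73860 61. The window of UMAMIT42 held 0 coding bases and lay upstream of the gene.

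The largest closure ratio of all members belonged to HSI2 (AT2G30470), and this was the only gene with 3 members in its body. The member with the ratio of 2.34 spanned chr2:12981683-12983346 with its summit in a coding exon, 2193 bp from the annotated start of a gene 4850 bp long. It measured 126 and 67.4 CPM in DS, 38.6 and 39.2 in L6, 43.0 and 39.6 in L26, then 158 and 102 in L57. Every DS and L57 library lay above every L6 and L26 library, although the DS libraries and the L57 libraries differed widely among themselves.
The second member, chr2:12983400-12984258, had a closure ratio of 2.00 and stage means of 50.6 in DS, 19.8 at L6, 25.4 at L26 and 60.9 at L57 (CPM). The third, chr2:12980797-12981583, had a ratio of 1.63 and measured 71.0 and 53.0 CPM in DS, 35.6 and 29.3 in L6, 29.1 and 47.0 in L26, then 99.1 and 77.5 in L57. In the third, 1 L26 library came close to the lower DS library, but the groups did not overlap. From the start of the gene the second member came first, then the one with the highest ratio, and the third lay toward the end. No other ACR was assigned to HSI2.

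Of the 8 members with a ratio of at least 2, 6 lay in gene bodies and 2 between genes. In CAP1 (AT4G34490), which encodes a cyclase-associated protein of actin turnover, the member at chr4:16484853-16485596 had a closure ratio of 2.15 and measured 41.9 and 33.8 CPM in DS, 19.8 and 15.4 in L6, 15.5 and 18.6 in L26, then 36.7 and 46.4 in L57. In HDR (AT4G34350), the last enzyme of the plastid pathway of isoprenoid synthesis, a member of low signal at chr4:16430196-16430518 had a ratio of 2.04 with 15.3 and 14.1 CPM in DS, 7.52 and 6.202 in L6, 5.83 and 4.87 in L26, then 16.0 and 11.977 in L57. Both genes kept a wide gap between germinating seeds and the other stages in every library. The members in AT1G73860 and AT4G31110 had ratios of 2.1205 and 2.08 at mean levels of only 12.4 and 12.9 CPM. An intergenic member, whose nearest start is that of AT5G33150, had a ratio of 2.34 at 13.6 CPM.

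Members in promoters, defined as from 400 bp before to 100 bp after an annotated start, had a median ratio of 1.38, against 1.40 in gene bodies. LZF1 (AT1G78600), a B-box transcription factor of light signaling, had one of the highest ratios among promoters of genes with a symbol, at chr1:29565451-29567111. It measured 109 and 138 CPM in DS, 70.0 and 63.1 in L6, 60.4 and 68.6 in L26, then 131 and 141 in L57, a closure ratio of 1.86. Germinating seeds thus lay well below both other stages, with no overlap between libraries. IAA34 (AT1G15050), of the Aux/IAA repressor family of auxin signaling, reached the same ratio of 1.86 at chr1:5183119-5183480 with a much lower signal, 15.72 and 13.9 CPM in DS, 8.22 and 6.19 in L6, 7.28 and 8.64 in L26, then 16.5 and 15.8 in L57. The promoter member of PGIP1, a cell wall protein that inhibits fungal polygalacturonases, had stage means of 111 in DS, 69.1 at L6, 57.13 at L26 and 116 at L57 (ratio 1.60).
The other promoter members named by the rule were those of ELC, an ESCRT component, with a ratio of 1.55, NP3, a kinase, with 1.56, AQI with 1.65, ARD1 with 1.50 and UMAMIT42, of an amino acid transporter family, with 1.47. RBE, a zinc finger factor known from petals, had 1.45, SOFL2 had 1.45, TIP3;1, the aquaporin of seed storage vacuoles, had 1.44 and CKX1, which degrades cytokinin, had 1.44.

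**Figure D1:**
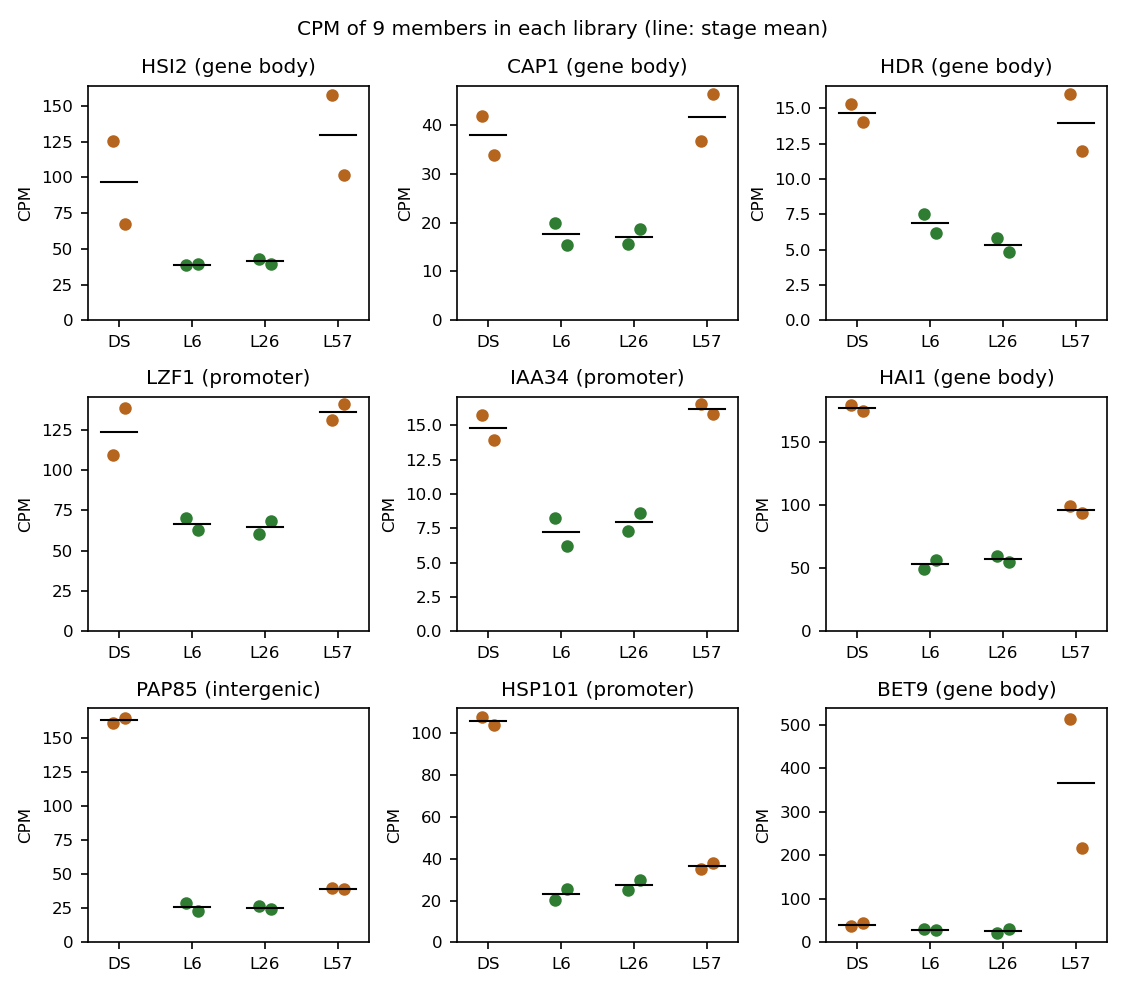
Accessibility in CPM of 9 members in each library, by stage. Points are libraries (brown DS and L57, green L6 and L26), lines are stage means, and all axes start at 0. DS and L57 libraries overlap in level in HSI2, CAP1, HDR and LZF1 and lie close together in IAA34, while HAI1, PAP85 and HSP101 reopen only in part and BET9 rises far above its DS level at L57.

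Across all members the closure ratio had a median of 1.40 (quartiles 1.34 and 1.49) and a maximum of 2.34, so that most members stood not far above the fold of the rule. A ratio of at least 1.5 was found in 317 members and of at least 2 in 8. Median CPM over the members was 25.4 in DS, 16.4 at L6, 15.8 at L26 and 26.99 in seedlings, compared with 23.7, 24.2, 24.4 and 24.2 over all eligible ACRs. These levels describe the rule and were not tested. The mean CPM of the members had a median of 21.1 (24.4 over eligible ACRs), and 633 of the 1382 were under 20 CPM. Over all members the median count was 94 and 91 reads in the DS libraries but 47 and 54 in those of L57.
In 1131 members (81.8%) all 4 DS and L57 libraries lay above all 4 L6 and L26 libraries, which was also so in 7.89% of the eligible ACRs, while in the other 251 the libraries overlapped. Just inside the fold were an intergenic member with its nearest start at AT5G55565 (ratio 1.3003) and a member in AT1G25500 (1.3005), and just outside it were ACRs in AIP3 (1.29996) and at AT3G49100 (1.29993).

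The rule compared the same libraries that a test would, so the calls in 4 of the stage comparisons only describe the members. At an adjusted p under 0.05 in edgeR's quasi-likelihood test, 845 members were lower at L6 than in DS (background 14.3% of all ACRs) and 819 were lower at L26 than in DS (background 15.6%). In the seedling 768 members were higher than at L6 (background 16.0%) and 580 higher than at L26 (background 7.53%). All 4 calls together were held by 260 members (18.8%, background 0.92% of all ACRs), whereas 197 members (14.3%, background 65.7%) had none of them. Calls over all ACRs fell whenever a library of the pair was left out. These counts of members depended on single libraries too. For L6 against DS they were 459 without DS replicate 1, 481 without L6 replicate 1 and 470 without L6 replicate 2, and for L26 against DS 483 without DS replicate 1, 481 without L26 replicate 1 and 502 without L26 replicate 2. For L57 against L6 they were 510 without L6 replicate 1, 410 without L57 replicate 1 and 478 without L57 replicate 2, and for L57 against L26 they were 324 and 334 without L26 replicate 1 and 2 and 235 and 275 without L57 replicate 1 and 2.

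To see the pattern in libraries that had not chosen it, the rule was applied to the 4 libraries of replicate 1 and read in those of replicate 2. Of the 1922 ACRs so chosen, 351 (18.3%) met the fold again, against 4.31% of the ACRs eligible in replicate 1, and in 1095 (57.0%) both DS and L57 were above both L6 and L26, against 19.0%. Choosing in replicate 2 gave 1236 ACRs, of which 350 (28.3%) met the fold in replicate 1, against 6.78%, and 838 (67.8%) kept the order, against 22.6%. The median ratio of the chosen ACRs shrank from 1.44 to 1.04 in the first case and from 1.42 to 1.12 in the second. These shares were above those of the eligible ACRs, but most single ACRs chosen from 4 libraries did not meet the fold again. The eligible ACRs include those chosen. A difference between stages that is common to many ACRs is shared by both replicates, and the CPM offsets were made from all 8 libraries together. Recurrence above the eligible share was thus likely beforehand and is no support for the pattern. Its source was not tested.

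**Figure D2:**
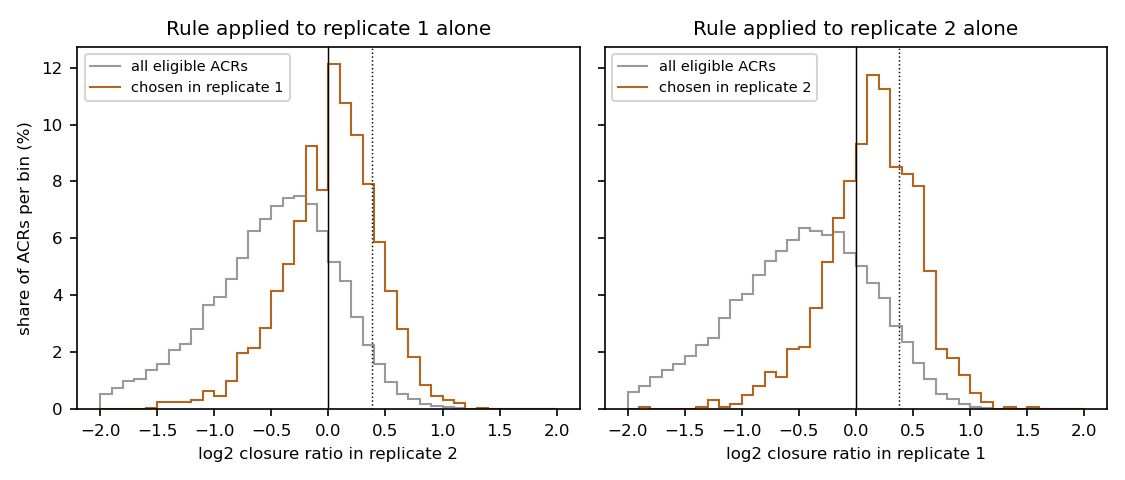
Distribution of the closure ratio (log2, x axis) in the libraries not used for choosing, as the share of ACRs per bin of 0.1 (y axis). Brown lines are ACRs chosen in the other replicate and grey lines all eligible ACRs, with the solid vertical line at a ratio of 1 and the dotted line at 1.3. The chosen ACRs lie to the right of the others, with medians of 1.04 (left) and 1.12 (right) against 0.739 and 0.731.

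Most members lay inside genes. A summit in a gene body was found in 1072 members (77.6%), against 38.2% of the eligible ACRs and 16.7% of the mirror set, and 894 members (64.7%) had it in a coding exon, against 27.8% and 6.24%. Introns held 162 members (11.7%, against 5.21% of eligible ACRs). Promoters held 116 members (8.39%, against 35.0% of eligible ACRs and 41.7% of the mirror set), and 82 (5.93%) were intergenic, against 20.6% and 41.2%. Pseudogenes held 112 members (8.10%), against 6.13% of eligible ACRs and 0.39% of the mirror set, where they were 6.
Read the other way, 11.2% of the eligible ACRs in coding exons and 10.8% of those in introns were members, but 1.16% of those in promoters and 1.38% of those between genes. Assigning each ACR by its largest overlap in place of its summit gave 1106 members in gene bodies and 83 in promoters. The members were also somewhat wider, with a median of 596 bp against 538 bp, and lay farther from the nearest annotated start, at a median of 1101 bp against 577 bp.

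**Figure D3:**
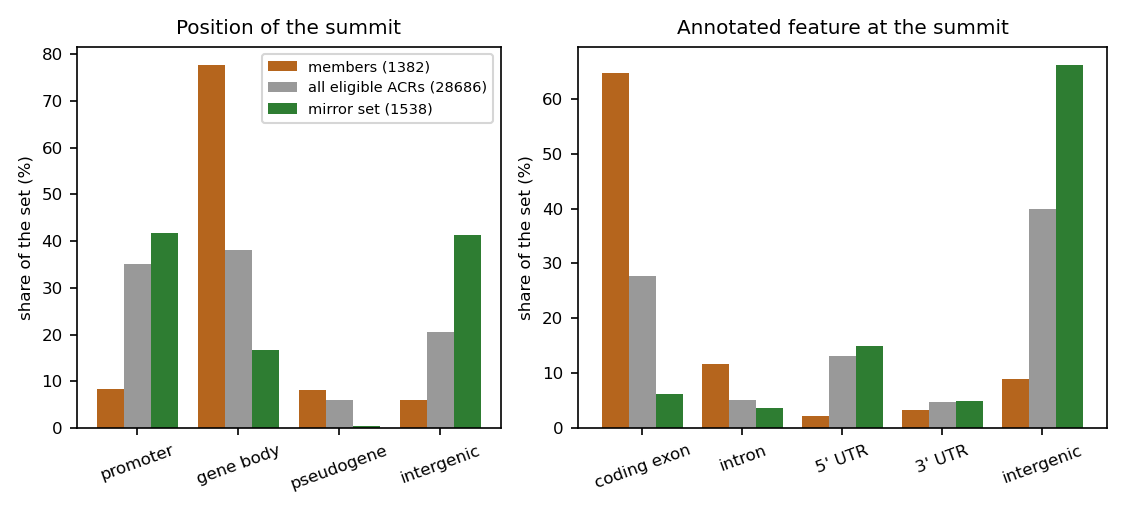
Share of members, eligible ACRs and mirror ACRs (y axis, percent of each set) by the position of the summit (left) and by the annotated feature there (right, 5 features shown). Gene bodies hold 77.6% of members, 38.2% of eligible ACRs and 16.7% of the mirror set.

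The shift was not limited to the members. Over all eligible ACRs in coding exons, the mean of DS and L57 was 1.204 times that of L6 and L26 at the median, and 1.16 times without the members, whereas for promoters the quotient was 0.914 and for intergenic ACRs 0.866. Coding exon ACRs took 23.5% to 25.5% of all counts in the DS and L57 libraries and 19.7% to 21.5% in those of L6 and L26, with no overlap, and the members themselves took 4.45% to 5.01% and 2.62% to 2.92%. Total counts were highest in the 2 DS libraries (3697787 and 3734831) and lowest in the 2 L57 libraries (1534759 and 1853894). The part of depth in the shift was not tested. The count-weighted GC content of the ACRs was 39.3% to 39.4% in DS and L57 and 38.7% to 39.0% in L6 and L26.

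GC content moved with membership. The members had a median GC content of 42.7%, against 39.1% of eligible ACRs and 34.6% of the mirror set. Within coding exons the medians were alike, 43.5% for members and 43.7% for all eligible ACRs there, and in promoters they were 39.8% and 37.7%. When eligible ACRs were divided into quintiles by GC content, the share of members among coding exon ACRs was 2.63% in the lowest quintile (2 of 76), 6.02% in the next, then 11.6%, 12.7% and 10.6%. Among promoters it was 0.456% and 0.591% in the lower quintiles and 1.69%, 1.88% and 1.55% in the upper ones, and among intergenic ACRs it went from 0.897% and 0.819% to 2.46%, 3.51% and 6.75%. In each of these classes it was thus higher at high GC content. In every quintile the share of members was thus higher among coding exons than among promoters, with no test made.
With offsets corrected for GC content, 922 ACRs met the rule, 622 of them members (45.0% of all members), and the share in gene bodies was 58.1% and in coding exons 37.5%, nearer to the 38.2% and 27.8% of eligible ACRs. Of the ACRs so chosen 174 were intergenic (18.9%, against 20.6% of eligible ACRs) and 170 in promoters (18.4%, against 35.0%). Of the 1072 members in gene bodies 42.6% met the rule after that correction, against 59.5% of those in promoters, 73.2% of the intergenic ones and 32.1% of those in pseudogenes. Over eligible ACRs, GC content had medians of 42.3% in gene bodies and 34.0% between genes. The parts of GC content and position in the pattern cannot be told apart and were not tested.

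**Figure D4:**
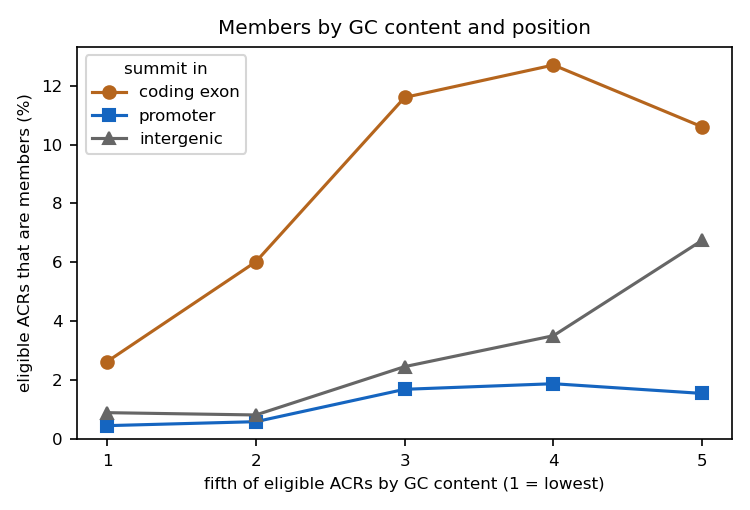
Share of eligible ACRs that are members (y axis, percent) by quintile of GC content (x axis, 1 lowest), for summits in coding exons (brown), promoters (blue) and between genes (grey). Coding exons lie above promoters in each quintile, from 2.63% against 0.456% to 10.6% against 1.55%.

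The 1067 members in the bodies of protein-coding genes fell in 1042 genes, of which 23 had 2 members and 1 had 3. These genes were longer, with a median of 2919 bp, than the genes with any eligible ACR in the body (2545 bp). Along the gene, 18.1% of the members had their summit in the first of 3 equal parts, 44.6% in the middle and 37.3% in the last, against 25.6%, 33.0% and 41.3% of all eligible body ACRs. The median position was 58.6% of the gene length in both.
The promoters of the same genes had other values than the bodies. Of the 1042 genes, 465 had an ACR in the promoter, and in 6 of them this was a member too. The mean of DS and L57 over that of L6 and L26 had a median of 0.90 in these 465 promoters. In the promoters of all 3046 genes with an eligible body ACR it was 0.88. It was 1.17 in all eligible body ACRs, and 1.62 in the body members, where the rule required a high value. The mean of DS and L57 was the higher one in 28.4% of the 465 promoters, against 29.2% of the 3046. From DS to L6, 32 of the 465 promoters were lower (6.88%, against 7.19% of the 3046) and 95 higher, with medians of the log2 fold change of 0.21 and 0.22. These promoters were thus close to the others of their kind. From L6 to L57, 38 were higher (8.17%, the same percentage as over the 3046) and 132 lower. CAP1 had a promoter ACR at 31.8 CPM in DS, 32.03 at L6, 43.8 at L26 and 23.9 at L57, and PHB one with 16.0, 26.51, 19.7 and 7.43. Both were picked as cases and do not stand for all 465.

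Dry seed and seedling were compared directly, since the rule set no direction between them. It read the lower of both means, however, so an ACR far lower in one of them passed less easily, and the count of calls is not free of the rule. The seedling was higher in 56 members (4.05%, background 17.0% of all ACRs) and lower in 44 (3.18%, background 12.2%), and the median log2 fold change over the members was 0.04. The higher count was 33 without DS replicate 2, 25 without L57 replicate 1 and 36 without L57 replicate 2, and it was 121 when libraries were scaled to total counts and 19 in the DESeq2 Wald test. The lower count ranged from 34 to 42 without single libraries of the pair.
The lower members were unevenly placed, 14 of 82 intergenic (17.1%) and 15 of 116 promoter members (12.9%) against 13 of 1072 in gene bodies (1.21%), where among all ACRs of these classes the shares were 16.3%, 15.2% and 7.37%. Higher members were 41 in gene bodies (3.82%, against 13.6% of all ACRs there), 7 in promoters (6.03% against 16.6%) and 5 of 82 between genes, where 28.5% of all ACRs were higher.

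The 6 largest falls from DS to L57 were at PAP85, HSP101, HSP17.6II, SESA5 and, named here after their values were seen, intergenic members nearest to AT2G21110 (log2 fold change -1.80) and AT5G15240 (-1.58). The intergenic member upstream of PAP85, a vicilin-like storage protein, at chr3:8013283-8014596 measured 161 and 165 CPM in DS, 29.0 and 22.9 in L6, 26.3 and 24.5 in L26, then 39.6 and 39.2 in L57. In the seedling it lay above germinating seeds (ratio 1.52) but far below DS, with a log2 fold change from DS to L57 of -2.05 (SE 0.16, adjusted p = 4.5e-24). The promoter of SESA5, a 2S albumin, at chr5:22238366-22240004 measured 199 and 184 CPM in DS, 43.9 and 53.4 in L6, 56.4 and 48.8 in L26, then 83.0 and 61.8 in L57, a change of -1.42 (SE 0.14, adjusted p = 1.3e-17). TIP3;1 with stage means of 145 in DS, 57.7 at L6, 51.4 at L26 and 82.9 at L57 changed by -0.83 (SE 0.14, adjusted p = 3.1e-07), and a coding exon of OLEO1, an oil body protein, changed by -0.64 (SE 0.25, adjusted p = 0.0395). All 4 members at the 26 genes of the list of LEA, storage and oil body proteins were thus lower in the seedling than in the dry seed (background 12.2% of all ACRs). Of the 20 promoter ACRs of that list 16 were lower too, with a median log2 fold change of -1.41, so that the fall was not particular to the members.
Heat shock and chaperone genes had 7 members at 6 of 30 genes, and 4 of the 7 were lower at L57 than in DS, as were 9 of the 17 promoter ACRs of that list. The promoter of HSP101, the disaggregase needed for acquired thermotolerance, shared with AT1G74320, measured 108 and 104 CPM in DS, 20.2 and 25.5 in L6, 24.9 and 29.6 in L26, then 35.2 and 38.1 in L57 at chr1:27939152-27940401, a change of -1.52 (SE 0.18, adjusted p = 3.0e-13). The member between Hsp70b and AT1G16040, in the promoters of both, had stage means of 193 in DS, 56.5 at L6, 69.7 at L26 and 118 at L57 CPM and changed by -0.69 (SE 0.13, adjusted p = 2.3e-06). In the coding exon of HSP70 (AT3G12580), with a ratio of 1.90, the libraries gave 93.9 and 81.8 CPM in DS, 21.6 and 38.8 in L6, 26.3 and 30.0 in L26, then 54.1 and 60.5 in L57 and the change was -0.61 (SE 0.17, adjusted p = 0.00262). The fourth was in HSP17.6II, whose stage means were 32.1 CPM in DS, 8.97 at L6, 8.43 at L26 and 11.8 at L57. DREB2A, a drought and heat factor, had a change of -0.44 (SE 0.23, adjusted p = 0.141), which did not pass.
HAI1 (AT5G59220), a protein phosphatase that restrains abscisic acid signaling, held a wide member over its coding exons at chr5:23894475-23896275. It measured 179 and 175 CPM in DS, 49.6 and 56.3 in L6, 59.4 and 54.7 in L26, then 98.9 and 93.3 in L57, so that the seedling lay between germinating and dry seeds without overlap, and changed by -0.88 (SE 0.13, adjusted p = 5.2e-09) from DS to L57. JAZ10, a jasmonate repressor, changed by -0.89 (SE 0.20, adjusted p = 9.3e-05), and an intron of OPT4, an oligopeptide transporter, by -0.81 (SE 0.11, adjusted p = 6.6e-10). In JAZ10 libraries overlapped, since the lower L57 library (28.2 CPM) lay below 1 L6 library (32.5). AT5G17840 had stage means of 192 in DS, 60.3 at L6, 52.4 at L26 and 83.0 at L57 at an intergenic member upstream and changed by -1.23 (SE 0.13, adjusted p = 6.7e-15).

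Among the higher members BET9 (AT5G14270), a bromodomain protein, stood apart. Its body member at chr5:4605161-4606321 measured 37.2 and 43.8 CPM in DS, 31.0 and 28.0 in L6, 20.7 and 30.7 in L26, then 513 and 217 in L57, so that both L57 libraries were far above all others and differed from each other by more than any other stage, and the log2 fold change was 3.14 (SE 0.15, adjusted p = 8.4e-49). The ACR in its promoter had stage means of 40.4, 34.7, 39.5 and 29.7 CPM. SNG1, an enzyme of sinapate ester synthesis, with 21.7 and 17.5 CPM in DS, 11.9 and 15.8 in L6, 14.2 and 15.6 in L26, then 45.8 and 48.9 in L57 in an intergenic member upstream, changed by 1.28 (SE 0.23, adjusted p = 9.4e-07), and the promoter of SAUR63, an auxin-induced growth gene, by 1.18 (SE 0.26, adjusted p = 8.8e-05). The promoter of SNG1 held a member too, which changed less, by 0.51 (SE 0.18, adjusted p = 0.0187). In SAUR63 libraries overlapped, since the lower DS library (11.4 CPM) lay below 1 L6 library (14.4). In HSI2 the first member changed by 0.41 (SE 0.15, adjusted p = 0.0253), the third by 0.50 (SE 0.16, adjusted p = 0.0129) and the second by 0.25 (SE 0.18, adjusted p = 0.32), which did not pass. In the first member the DS libraries (126 and 67.4 CPM) and the L57 libraries (158 and 102) overlapped in level.

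**Figure D5:**
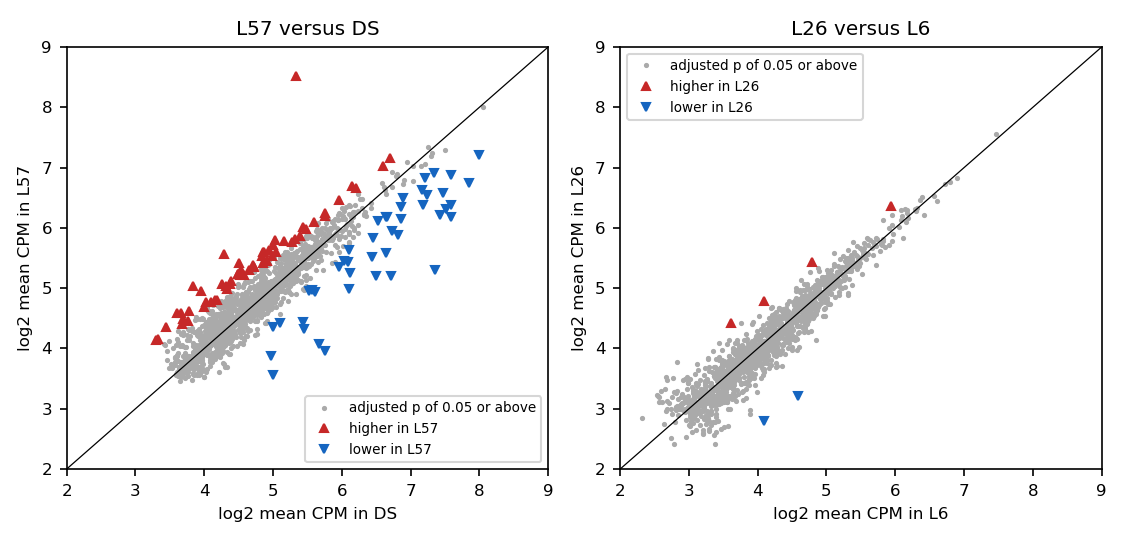
Mean CPM (log2) of the 1382 members in DS and L57 (left) and in L6 and L26 (right), with the diagonal marking equal levels. Triangles mark members past an adjusted p of 0.05, 56 higher (red) and 44 lower (blue) at L57 than in DS, and 4 higher and 2 lower at L26 than at L6.

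Between L6 and L26 few members were called, 4 higher (0.289%, background 8.71%) and 2 lower (0.145%, background 7.91%), and 17 and 16 at an unadjusted p under 0.05. The rule read the higher of both means, so this count is not free of it either. The higher count was 1 without L6 replicate 2 or without L26 replicate 2, 7 without L26 replicate 1 and 0 in the DESeq2 Wald test, and the lower count was 4 without any 1 of the 4 libraries. The intergenic member nearest to AT3G41761 fell from 24.9 and 23.0 CPM at L6 to 9.90 and 8.71 at L26, a log2 fold change of -1.37 (SE 0.31, adjusted p = 3.5e-04). The other was nearest to AT1G28260, with -1.32 (SE 0.36, adjusted p = 0.00411). The higher members named by the rule were in AT5G58540 with 0.63 (SE 0.20, adjusted p = 0.018), in the promoter of PRHA, a homeobox gene, with 0.43 (SE 0.14, adjusted p = 0.0241) and in the 3′ UTR of EMB2770 with 0.82 (SE 0.29, adjusted p = 0.0376). The fourth, named after its value was seen, was at AT2G19610 (log2 fold change 0.69).

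Members at genes of chosen processes were mostly in gene bodies, as were 77.6% of all members. Of all eligible ACRs 4.82% were members, and of those in gene bodies 9.78%. Of the 36 genes of light signaling and the clock 5 had a member. Besides the promoter of LZF1 these were the bodies of PRR5 (ratio 1.45), ELF3 (1.32, with overlap) and PIF4 (1.32), which act in the clock or in growth under it, and of STH, a B-box protein (1.44). Auxin genes had 5 members at 5 of 66 genes, ARF16 with stage means of 54.1 in DS, 31.7 at L6, 36.4 at L26 and 52.8 at L57, ARF17 with 12.3 in DS, 8.06 at L6, 8.00 at L26 and 17.2 at L57, IAA8 with 29.7 in DS, 16.5 at L6, 18.1 at L26 and 27.3 at L57, the conjugating enzyme WES1 with 21.4 in DS, 14.8 at L6, 7.52 at L26 and 27.3 at L57 and SAUR63. In ARF17 libraries overlapped, since the lower DS library (11.3 CPM) lay below 1 L26 library (11.6).
In DNA replication and the cell cycle 4 of 51 genes had a member, all in the body. ORC1B, of the origin recognition complex, measured 55.9 and 48.6 CPM in DS, 29.7 and 33.6 in L6, 27.7 and 40.6 in L26, then 56.0 and 50.6 in L57, and MCM4, of the replicative helicase, had stage means of 36.5 in DS, 26.4 at L6, 25.8 at L26 and 39.6 at L57. CDC6, which loads that helicase, and RNR2A, of ribonucleotide reductase, had ratios of 1.46 and 1.34, the latter with overlapping libraries.
Among patterning genes PHB, a class III homeodomain factor of the upper leaf side, measured 62.5 and 53.8 CPM in DS, 35.9 and 35.1 in L6, 33.8 and 38.2 in L26, then 79.2 and 58.1 in L57 at its member near the end of the gene. AS1, a leaf MYB factor, had a ratio of 1.48. In the nitrate list NLP7, a nitrate sensor, had 1.34 and its relative AT1G64530 1.63. In fat mobilization the lipase gene SDP1 had 1.52, the peroxisomal PMDH2 1.54 and an intergenic member near ACX4 1.52.
The dormancy gene DOG1 held a member with its summit in an annotated 3′ UTR and stage means of 24.1 in DS, 15.6 at L6, 11.962 at L26 and 23.65 at L57 CPM (ratio 1.51), while the ACR in its coding exon measured 21.3, 20.8, 13.8 and 19.0 and was no member. ABF1, a bZIP factor of abscisic acid response, had 1.38, EIN2, of ethylene signaling, 1.44, and the shared start of ERF5 and AT5G47229 1.34. Photosynthesis had 1 member at 52 genes, in the body of LHCB4.2 (1.43), cytosolic ribosomal proteins 0 at 37 and gibberellin and germination growth 0 at 34. Body ACRs of these lists numbered 25, 14 and 26, so counts of 0 or 1 say little. Those of the light, auxin and replication lists numbered 19, 45 and 13, with 4 members in each. Over all these lists 47 members stood at list genes, 10 of them lower (21.3%, against 3.18% of all members and 12.2% of all ACRs) and 3 higher (6.38%, against 4.05% and 17.0%) at L57 than in DS, and the rest did not pass in that comparison. No call of enrichment is made from these counts.

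Markers of other seed tissues were read beside these results. Of 31 seed coat marker genes 9 had a promoter ACR and 0 a member, and their summed promoter CPM was 292 to 298 in DS, 296 to 301 at L6, 365 to 379 at L26 and 293 to 349 at L57. Of 27 endosperm marker genes 4 had a promoter ACR, with sums of 65.8 to 68.8 in DS, 72.2 to 72.9 at L6, 65.4 to 70.7 at L26 and 74.2 to 76.3 at L57. Members lay in the bodies of 2 endosperm marker genes, EXPA2 (ratio 1.40) and ICE1 (1.301), which are active in other tissues too. Neither list divided DS and L57 from L6 and L26, but the genes with a promoter ACR were few and the part of tissue in the pattern was not tested.

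Of the 4 members with the highest signal 2 lay in gene bodies, 1 in a promoter and 1 between genes. The body of UGT89B1, a flavonol glucosyltransferase, at chr1:27785647-27786560 measured 270.3 and 260.1 CPM in DS, 191 and 161 in L6, 179 and 198 in L26, then 253 and 262 in L57, a small change at great depth without overlap. OPT4 measured 275 and 237 CPM in DS, 104 and 91.1 in L6, 94.6 and 79.3 in L26, then 155 and 139 in L57. The promoter of UGT87A2, another glycosyltransferase, had stage means of 180.5 in DS, 119.7 at L6, 114 at L26 and 157 at L57, and the intergenic member nearest to AT5G05455 had 153 in DS, 111 at L6, 109 at L26 and 163 at L57.
Another member lay within 10 kb of 317 members (22.9%), and a member lay within 10 kb of 21.0% of the eligible ACRs that were none. The densest place held 4 members on chromosome 5, in AT5G16860, at AT5G16900 and 2 in CSLD2, a cellulose synthase-like gene of tip growth, with ratios of 1.64, 1.61, 1.42 and 1.36. Chromosomes 1 to 5 held 358, 197, 290, 176 and 361 members, of 7481, 4590, 5602, 4447 and 6566 eligible ACRs.

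The 501 bp centred on each summit were searched on both strands for short sequence motifs. Motifs of promoters were less frequent in the members than in eligible ACRs. The Site II element (TGGGCC), known from genes of ribosome and mitochondrial biogenesis, was in 8.83% of the members and 23.0% of the eligible ACRs, the telo-box (AAACCCTA) in 2.39% and 8.10%, the G-box (CACGTG), bound by bZIP and bHLH factors, in 7.60% and 14.6%, the abscisic acid response element core (ACGTGTC, which overlaps the ACGT core) in 3.76% and 7.92% and the TATA box (TATAAA) in 27.9% and 47.1%.
For Site II and the telo-box the difference was also there among promoters, 14.7% against 35.0% and 4.31% against 15.2%, and among coding exons, 8.28% against 11.3% and 1.90% against 4.19%. For the G-box the shares were 14.7% and 17.9% in promoters and 7.05% and 10.2% in coding exons. The RY element (CATGCA), to which B3 factors bind, was in 18.5% of the members and 18.6% of eligible ACRs, and the heat shock element (GAANNTTC) in 18.1% and 17.9% of those in coding exons. The I-box (GATAAG) was in 28.9% and 25.8%. The reversed letters of Site II (CCGGGT), read as a control, were in 8.39% and 6.83%, without that difference. The reversed letters of the TATA box (AAATAT) were in 31.8% and 52.1%, a difference like that of the TATA box itself. These shares are descriptions of letters near summits, and ACRs in coding exons carry codons in the same window.

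Under the other normalizations the selection varied. The rule chose 1661 ACRs with TMM factors, 1654 with DESeq2 size factors and 2177 with total counts, of which 1176, 1172 and 1205 were members, and gene bodies held 78.9%, 78.4% and 77.1% of each choice. After thinning all libraries to the total of the smallest it chose 1440, with 975 members and 78.2% in gene bodies. All of these, GC correction included, kept 443 members (32.1%), 77.9% of them in gene bodies. HSI2 (all 3 members), CAP1, HDR, LZF1 and IAA34 met the rule under each, and they are among 34 of the 76 named members that did. HAI1 and PAP85 did not with TMM factors or DESeq2 size factors, and HSP101 not with these or with GC correction. TIP3;1 and UGT89B1 met it only after thinning, SESA5 and PRHA only with GC correction, and BET9, UGT87A2 and AT5G58540 under none. With GC correction 49 of the 76 met it.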

How the data were processed

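ATAC-seq libraries of 4 stages, 2 each, were analysed. Per the submitters' processing notes and the study's methods, reads were trimmed with fastp 0.23.4, aligned to TAIR10 with Bowtie2 2.4.4, filtered with SAMtools 1.14 and deduplicated with Genrich 0.6.1. Peaks called with MACS3 3.0.0b3 in both libraries of a stage were merged with bedtools 2.30.0 into 1 set of ACRs (R 4.3.1 is also named). The deposited counts are whole reads per ACR and library, and the authors made the deposited CPM values from them with trended offsets from csaw, which remove differences that depend on abundance. The other deposited values are the coordinates and summits of the ACRs.

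The members were found from the CPM values. The offsets were recomputed (loess span 0.3) and the counts tested with edgeR 4.0.16 (quasi-likelihood F test, limma 3.58.1, R 4.3.3) over all 30223 ACRs and 8 libraries, with Benjamini-Hochberg adjustment and a threshold of 0.05. The fit was tested on simulated data. The common dispersion was 0.00947 with 4 residual degrees of freedom. Median prior degrees of freedom were 191, so the SE values rest mostly on a spread shared over ACRs. They do not measure the difference between the 2 libraries of a stage at a single ACR. Alternatives were TMM factors, DESeq2 1.42.0 size factors and Wald test, total counts, GC-corrected offsets, thinning, other folds and minimums, a replicate block and leaving out each library. Each ACR was given the gene whose promoter, else body, held its summit, else that with the nearest start. Named were the 12 promoter members (protein-coding genes with a symbol) and the 6 other members of highest ratio without overlap of libraries, the 4 of highest mean CPM, up to 4 members per gene list, the 3 of smallest p in each direction of L57 against DS and L26 against L6, the ACRs next to the fold of 1.3, and the densest cluster; the text gives most of them. The members and lists were chosen with earlier results of these data known. Columns of values tied to no sample numbered 0. Total counts per library were 1534759 to 3734831, and intervals from them would cover counting error only.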

Additional observations from a re-analysis of the deposited data

How the results depend on the processing

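The number of ACRs that met the rule was 2177 with total counts, 317 with a fold of 1.5, 2512 with a fold of 1.2 and 749 with a mean of at least 20 CPM, and 1280 to 1552 without single libraries. Members higher at L57 than in DS numbered 121 with total counts, 19 in the DESeq2 Wald test and 25 to 40 without single libraries, and lower members 34 to 42. Between L6 and L26 the higher members numbered 8 with total counts, 0 in the Wald test (17 in edgeR at an unadjusted p under 0.05) and 1 to 7 without single libraries. The lower ones numbered 10 with TMM factors, 15 with DESeq2 size factors, 7 with total counts, 7 in the Wald test, 5 in the earlier form of the edgeR test and 4 without any single library. Members lower at L6 than in DS numbered 462 with GC-corrected offsets, 276 in the Wald test and 459 to 588 without single libraries, and those lower at L26 than in DS 483, 268 and 481 to 619. Members higher at L57 than at L6 numbered 1258 with total counts and 410 to 519 without single libraries, and those higher than at L26 numbered 258 in the Wald test and 235 to 334 without single libraries. In the comparisons the rule used, calls over all ACRs also fell in the Wald test and without single libraries. For L6 against DS they went from 14.3% of all ACRs to 4.29% in the Wald test. A stage left with 1 library was assumed to vary like the others. The causes were not tested. The balance of calls turned in both tested comparisons. For L57 against DS it was 56 higher and 44 lower as reported, but 19 and 43 in the Wald test, 25 and 37 without L57 replicate 1, 33 and 42 without DS replicate 2. For L26 against L6 it was 4 and 2, but 4 and 10 with TMM factors, 4 and 15 with DESeq2 size factors, 0 and 7 in the Wald test and 1 and 4 without L6 replicate 2 or without L26 replicate 2. Of the counts of chosen ACRs and of called members compared, 73 stayed within 1.5 times the reported one and 42 did not. Of the gene body shares, motif shares and class counts compared, 26 stayed near the reported value and 55 did not. For shares, near meant inside the 95% interval of the reported share, and for class counts within 1.5 times.

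Over all ACRs, deviations of same-numbered libraries correlated between -0.04 and 0.02, so no pairing by replicate number was seen. Counting error could hide a weak pairing, and this reading cannot exclude one. With a replicate block the members numbered 54 higher and 44 lower at L57 than in DS, 4 and 2 for L26 against L6, and 825, 802, 751 and 569 in the comparisons the rule used, and with the replicate block and GC-corrected offsets 71 and 49, and 3 and 2. The share of the choice in gene bodies, recomputed under alternatives chosen after seeing the data, ran from 58.1% with GC-corrected offsets to 80.8% with a fold of 1.5, and from 71.6% to 78.7% without single libraries. Depth limits weak members most, since the median member had 32 and 42 counts in the L26 libraries.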
